A study of Mus musculus with 8 samples.

Results

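Planar cell polarity is the alignment of cells within the plane of a tissue, and noncanonical Wnt signals such as Wnt5a acting through Ror2 feed into it. The core machinery comprises the multi-pass membrane proteins Vangl1 and Vangl2, the atypical cadherins Celsr1, Celsr2 and Celsr3, which join neighbouring cells, and the cytoplasmic Prickle proteins, which bind Vangl. Scrib is a scaffold protein that interacts with Vangl2, and the ubiquitin ligases Smurf1 and Smurf2 target Prickle1 for degradation in mouse embryos. These 10 genes, named by a fixed list, were followed in primordial germ cells (PGCs), the migrating precursors of eggs and sperm. All 10 were found among the 19938 genes that had a probe of their own on the array, and each gene was represented by its probe of highest mean.

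PGCs came from 4 mouse embryos homozygous for the Ror2 Y324C change (mutant, Ror2Y324C/Y324C) and 4 wild-type embryos (WT, Ror2+/+) at embryonic day 9.5, 1 array per embryo. Mothers were Ror2Y324C/+ and fathers Ror2Y324C/+;Oct4-ΔPETg/Tg, so embryos of both groups carried the GFP reporter used for sorting, on a mixed strain background. Mutants 1 to 4 were labelled as having 24, 22 to 23, 23 and 21 to 22 somites, and WT 1 to 4 as having 25, 25, 22 and 21. The Y324C change is a substitution, so Ror2 transcript (7.81 ± 0.34 in mutants and 7.69 ± 0.21 in WT, log2, SD, n = 4 each) does not check the genotype.

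Values were taken as log2 from their range, since the scale of the deposited table was not given in the sources used here, and array medians ran from 5.37 to 5.58. The distribution was narrowest in WT 3 (SD over genes 1.77, against 1.82 to 1.95 in the other arrays). WT 4, mutant 4 and WT 3, the embryos of fewest somites, had the narrowest distributions (1.82, 1.83 and 1.77). WT 1 and WT 2, both at 25 somites, had 1.95 and 1.86. The part of distribution width in the somite slopes was not tested. The sorted cells carried germ cell markers: the mean over 12 of 12 PGC markers was 9.97 to 10.10 in mutants and 9.84 to 10.13 in WT, with Pou5f1, the gene behind the reporter, at 11.24 ± 0.12 in mutants and 11.13 ± 0.18 in WT (SD, n = 4 each). With no detection call in the table, probes of 1194 olfactory and vomeronasal receptor genes served as a yardstick, and 95% of them had a mean under 5.26. Celsr3 and Prickle2 lay below that level, so their values cannot be told apart from those of such probes. The other 8 members lay above it on average, although Smurf1 averaged 5.18 in WT. Bulk arrays cannot tell fewer cells of a type from less RNA per cell.

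Among the 10 members, Vangl2 and Celsr3 had the somite slopes of smallest unadjusted p, and Smurf2 had the largest difference between genotypes on its probe of higher mean, though not on the mean of its 2 probes. The 250 bases before the listed start are shown for Vangl2, Celsr3 and Smurf2 so that they can be set side by side (RefSeq, GRCm38.p6, 5′ to 3′ on the strand of the gene). Capitals mark the GC box GGGCGG or its reverse complement CCGCCC. The windows are chr1:172027296-172027545 on the minus strand for Vangl2, chr9:108825795-108826044 on the plus strand for Celsr3, and chr11:106920716-106920965 on the minus strand for Smurf2. The Celsr2 window is described but not printed.
Vangl2: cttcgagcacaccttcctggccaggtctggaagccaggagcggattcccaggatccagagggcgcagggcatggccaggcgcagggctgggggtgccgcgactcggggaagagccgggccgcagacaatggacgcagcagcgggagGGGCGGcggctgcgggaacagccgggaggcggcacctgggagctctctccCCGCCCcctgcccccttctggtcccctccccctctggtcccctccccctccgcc
Celsr3: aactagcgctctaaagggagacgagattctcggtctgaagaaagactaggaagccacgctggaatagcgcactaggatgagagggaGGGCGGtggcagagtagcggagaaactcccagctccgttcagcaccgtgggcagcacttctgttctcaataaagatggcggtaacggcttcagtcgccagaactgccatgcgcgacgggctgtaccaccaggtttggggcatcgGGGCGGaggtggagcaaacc
Smurf2: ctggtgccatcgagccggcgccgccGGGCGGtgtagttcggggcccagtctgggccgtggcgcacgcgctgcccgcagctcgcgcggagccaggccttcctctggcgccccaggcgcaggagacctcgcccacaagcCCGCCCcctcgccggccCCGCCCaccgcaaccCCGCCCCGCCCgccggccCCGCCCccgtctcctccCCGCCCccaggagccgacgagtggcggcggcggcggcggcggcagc

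The GC box, a site recognised by Sp1-family factors, occurred 7 times in the Smurf2 window, 2 times each in those of Vangl2 and Celsr3, and 0 times in that of Celsr2. Over 32851 windows of the same length, 32.7% held at least 1. The TCF/LEF core CTTTGAT (either strand) is in 3.21% of windows and the palindromic E-box CACGTG in 6.02%, and these letters are in none of the 4 windows. GC content was 82.0% for Smurf2, 73.6% for Vangl2, 75.2% for Celsr2 and 58.0% for Celsr3, against a median of 52.4% over all windows. Of the 10 members, 7 had a window in the table, and these matches are a description of the letters only.

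The first question was whether any of these genes differs between Ror2 mutant and WT germ cells. No member passed the limma test, and neither did any other gene (0 of 19938, 0% at an adjusted p under 0.05). At an unadjusted p under 0.05, 2 of 10 members were higher in mutants, against 2.72% of all genes, and 0 were lower, against 1.96%. In either direction 934 genes (4.68%) reached that level. Differences (mutant minus WT) were above 0 for 8 of 10 members, with a median of 0.10 on the log2 scale, against 44.6% of all genes and a median of -0.02. The members were chosen with earlier results of these data known, so these counts describe the list and test nothing about it.

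**Figure D1:**
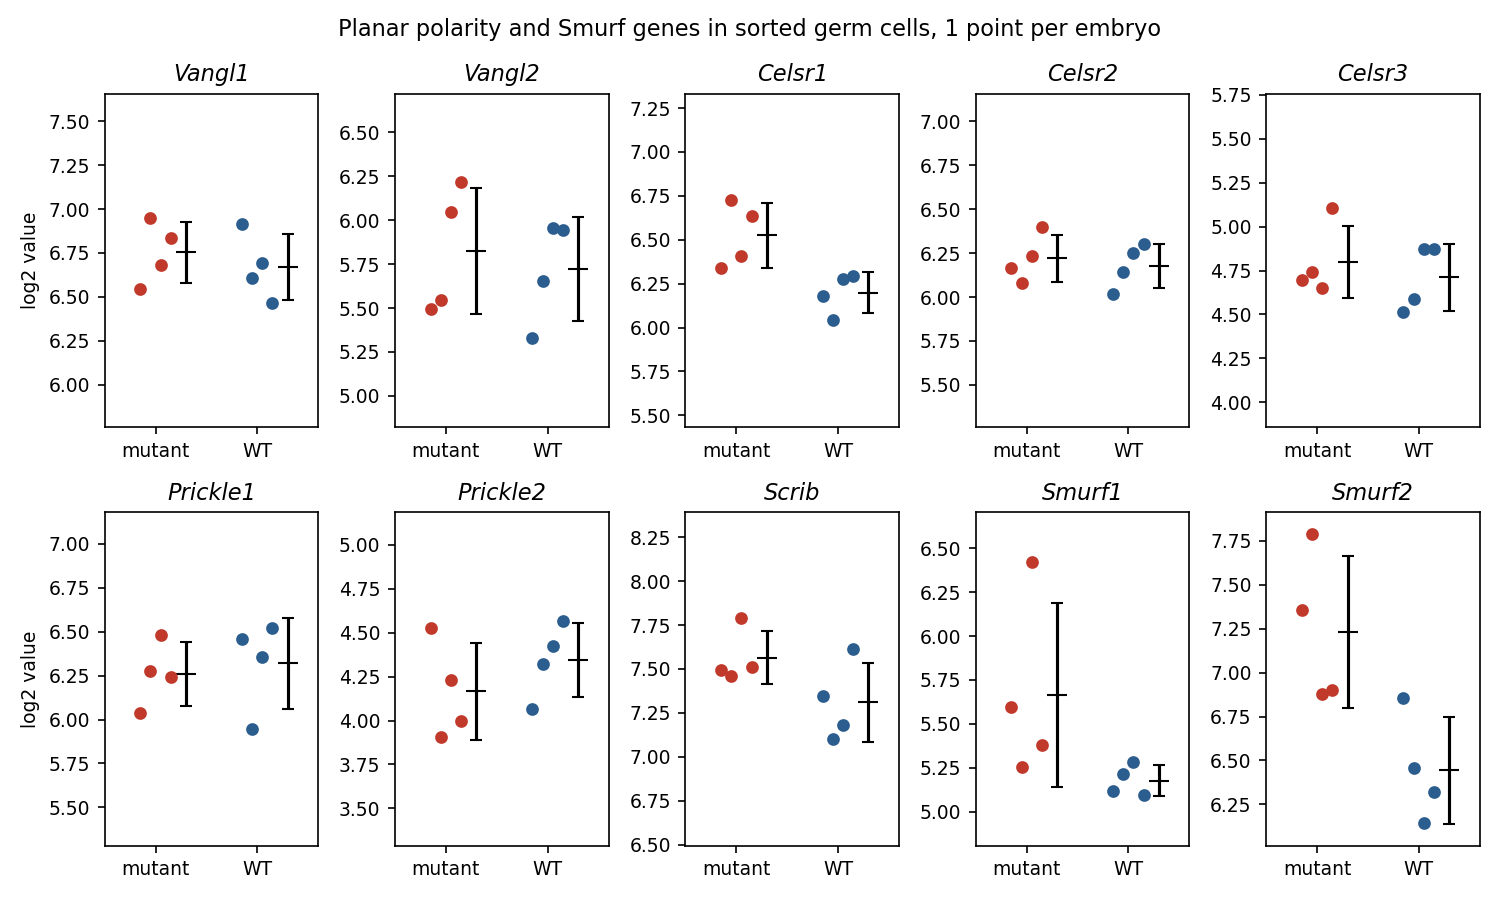
Log2 value of each of the 10 genes by embryo, mutants left and WT right, 1 point per embryo, with the mean and SD as a cross and bar; each vertical axis spans the same width and does not start at 0. The 4 mutant points lie above the 4 WT points for Smurf2 and Celsr1, and the groups overlap for the rest.

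Smurf2, a HECT-type ubiquitin ligase also known for its action on TGF-beta and BMP receptors and Smads, had log2 values of 7.36, 7.79, 6.88 and 6.90 in mutants 1 to 4, against 6.85, 6.46, 6.14 and 6.32 in WT 1 to 4. All 4 mutants lay above all 4 WT embryos, but the lowest mutant (6.88) and the highest WT embryo (6.85) nearly met. The difference was 0.79 ± 0.23 (SE, 95% interval 0.28 to 1.29), or 1.73-fold, with a limma unadjusted p of 0.0058 and an adjusted p of 0.973. A difference of that size or more in either direction was seen in 0.762% of all genes. The groups did not overlap for 2 of 10 members, both higher in mutants, against 2.52% of all genes in either direction and 1.08% in that direction.

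Smurf2 was the only member with more than 1 probe, and its probes disagreed. The second probe (10392259, lower mean) had values of 5.60, 6.07, 5.46 and 5.80 in mutants, against 6.10, 6.03, 5.18 and 6.16 in WT. The groups overlapped, and its difference was -0.14 ± 0.23 (SE) with a limma unadjusted p of 0.555 (adjusted 0.977), opposite in sign to that of the first probe (10392261). With the mean of both probes as the gene's value, the difference was 0.32 with an unadjusted p of 0.153 (limma).

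The gap between the probes was compared within each array. The first probe exceeded the second by 1.76, 1.72, 1.41 and 1.10 in mutants, against 0.75, 0.42, 0.96 and 0.16 in WT. Mutants averaged 1.50 ± 0.31 and WT 0.57 ± 0.35 (SD, n = 4 each), and the groups did not overlap. The difference of 0.93 had an exact two-sided permutation p of 0.0286, the smallest that 4 against 4 embryos allow, for a comparison chosen after its values were seen. Among the 999 genes with several probes, 2.6% had groups that did not overlap on this measure, 2.7% had a gap of at least that size, and 33.2% had first and second probes of opposite sign. The higher level of Smurf2 in mutants therefore rests on 1 of its 2 probes, and which parts of the transcript they read was not used here.

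**Figure D2:**
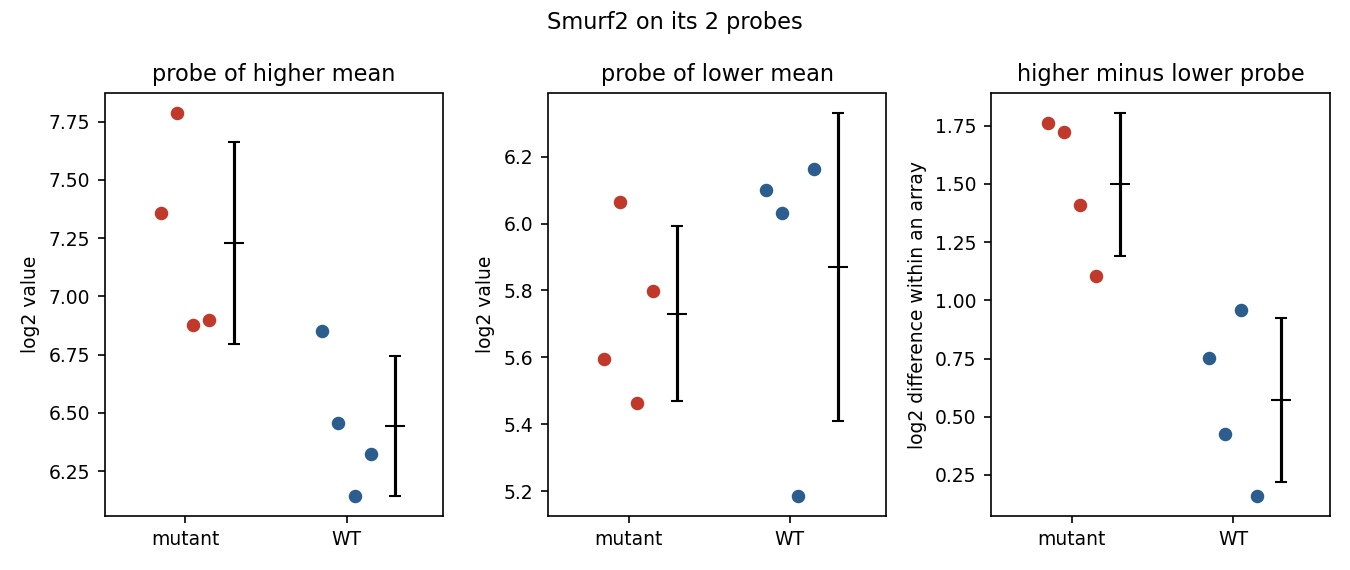
Smurf2 on the probe of higher mean (left), the probe of lower mean (middle) and their difference within each array (right), on the log2 scale, 1 point per embryo with mean and SD, axes not starting at 0. Mutants lie above WT on the first probe and in the difference (1.10 to 1.76, against 0.16 to 0.96 in WT), and overlap WT on the second probe.

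Smurf1, the paralogue of Smurf2, had log2 values of 5.60, 5.26, 6.42 and 5.38 in mutants, against 5.12, 5.21, 5.28 and 5.09 in WT. Mutant 3 stood high, 3 of 4 mutants lay above the highest WT embryo, and mutant 2 lay inside the WT range. The difference was 0.49 ± 0.23 (SE, interval -0.02 to 0.99), with a limma unadjusted p of 0.0583 and an adjusted p of 0.973. Without mutant 3 the difference was 0.23 ± 0.15 (SE), so this embryo held a large part of its size. The WT mean of Smurf1 lay below the receptor yardstick, as given above.

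Celsr1, the cadherin that holds Frizzled and Vangl complexes together across cell borders in skin and neural tube, was the other member without overlap. Its values were 6.34, 6.72, 6.41 and 6.64 in mutants, against 6.18, 6.04, 6.28 and 6.30 in WT. The distance between the lowest mutant and the highest WT embryo was small beside the spread within each group. The difference was 0.33 ± 0.14 (SE, interval 0.02 to 0.63), or 1.25-fold, with a limma unadjusted p of 0.0372 and an adjusted p of 0.973. With each embryo left out in turn it ran from 0.26 to 0.39, and its unadjusted limma p from 0.0276 to 0.108. That p was 0.0667 with a variance trend, 0.0737 with a replicate block, 0.0259 after quantile normalization and 0.0131 after median centring.

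For the other cadherins the groups overlapped. Celsr2 was at 6.16, 6.08, 6.23 and 6.40 in mutants, against 6.02, 6.14, 6.25 and 6.30 in WT. It averaged 6.22 ± 0.13 in mutants and 6.18 ± 0.13 in WT (SD, n = 4 each), a difference of 0.04 (interval -0.25 to 0.33). Celsr3 averaged 4.80 ± 0.21 in mutants and 4.71 ± 0.19 in WT, a difference of 0.09 (interval -0.25 to 0.43).

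The Vangl genes, of which Vangl2 is needed for neural tube closure in mice, were at similar values in both genotypes. Vangl1 had 6.55, 6.95, 6.68 and 6.83 in mutants, against 6.92, 6.61, 6.69 and 6.47 in WT, a difference of 0.08 (interval -0.24 to 0.41). Vangl2 had 5.50, 5.54, 6.04 and 6.21 in mutants, against 5.33, 5.65, 5.95 and 5.94 in WT, a difference of 0.10 (interval -0.36 to 0.56). The spread of Vangl2 within each genotype (SD 0.36 in mutants and 0.30 in WT) was wider than the distance between the means.

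The Prickle genes were the 2 members below 0. Prickle1, a target of the Smurf ligases at the protein level, averaged 6.26 ± 0.18 in mutants and 6.32 ± 0.26 in WT, a difference of -0.06 (interval -0.42 to 0.30). Prickle2 had 4.53, 3.91, 4.23 and 4.00 in mutants, against 4.07, 4.32, 4.42 and 4.57 in WT, a difference of -0.18 (interval -0.56 to 0.20). The intervals of both include 0, and a transcript level says nothing of protein degradation.

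Scrib, which sits on the basolateral side of epithelial cells and also binds Vangl2, had 7.49, 7.46, 7.79 and 7.51 in mutants, against 7.34, 7.10, 7.18 and 7.61 in WT. WT 4 lay above 3 of 4 mutants, and the other WT embryos lay below all of them. The difference was 0.25 ± 0.15 (SE, interval -0.08 to 0.59; limma unadjusted p 0.121, adjusted 0.973).

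**Figure D3:**
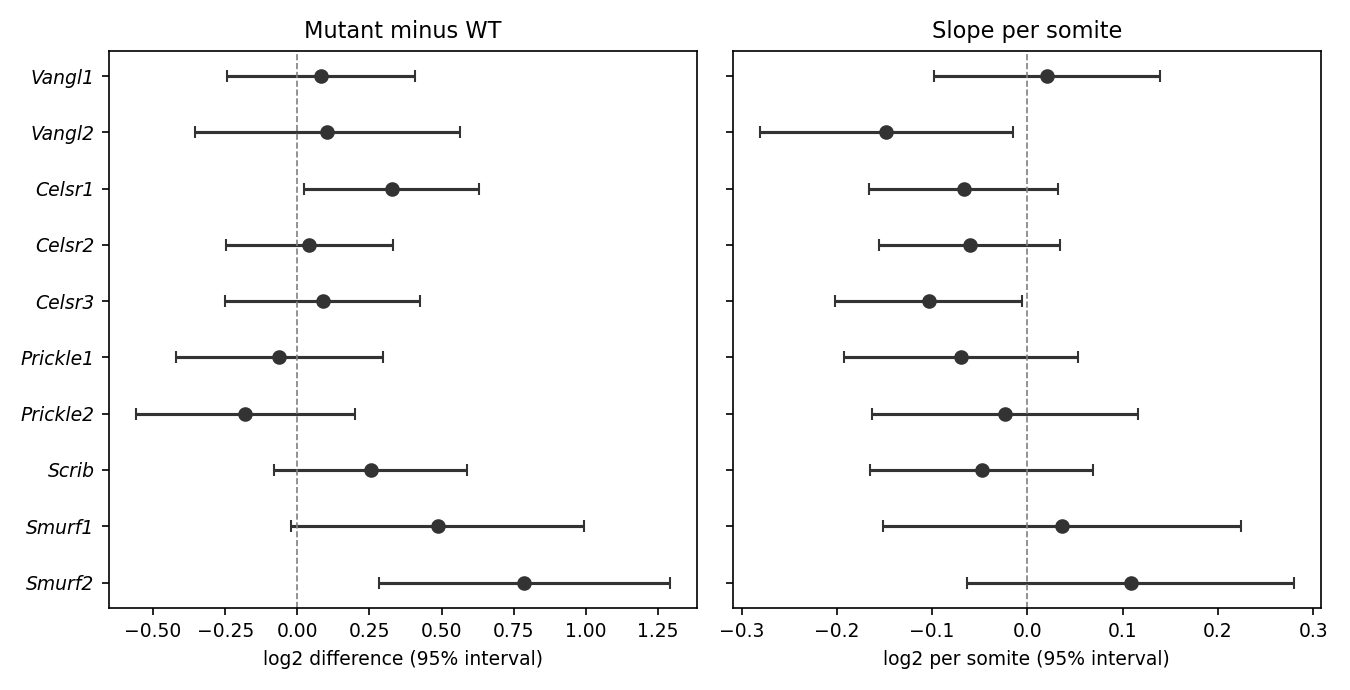
Difference between mutant and WT (left, log2) and slope per somite with genotype in the model (right, log2 per somite) for the 10 genes, points with 95% limma intervals and a dashed line at 0. The interval of the difference lies above 0 for Smurf2 and Celsr1, and that of the slope below 0 for Vangl2 and Celsr3; none of these passed after adjustment.

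The second question was whether the genes change over the 21 to 25 somites that the embryos span. No gene passed the limma slope test (0 of 19938, 0%, at an adjusted p under 0.05, and 1942 or 9.74% at an unadjusted p under 0.05). Of the members, 7 of 10 had a slope below 0, with a median of -0.05 log2 per somite, against 59.5% of all genes and a median of -0.02. At an unadjusted p under 0.05, 2 members had a negative slope (4.72% of all genes) and 0 a positive one (5.02%).

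Vangl2 had the steepest negative slope of the 10, at -0.15 ± 0.06 log2 per somite (SE, interval -0.28 to -0.02; limma unadjusted p 0.0323, adjusted 0.486). In order of somite number, Vangl2 was at 5.94 (WT 4), 6.21 (mutant 4), 5.95 (WT 3), 5.54 (mutant 2), 6.04 (mutant 3), 5.50 (mutant 1), 5.33 (WT 1) and 5.65 (WT 2). The 3 embryos of fewest somites thus all lay above the 3 of most somites. Those 3 of fewest somites were also the arrays of narrowest distribution, as given above. Celsr3 followed with -0.10 ± 0.04 (interval -0.20 to -0.01; limma unadjusted p 0.0408, adjusted 0.499), from values of 4.65 to 5.10 in mutants and 4.51 to 4.87 in WT, all at the level of the receptor probes. The slopes of Celsr1 and Celsr2 were -0.07 ± 0.04 and -0.06 ± 0.04, with intervals that include 0. After quantile normalization the slope of Vangl2 was -0.14 and that of Celsr3 -0.08, with unadjusted limma p-values of 0.0365 and 0.0737. The unadjusted limma p of the Vangl2 slope was 0.0585 after median centring, 0.0603 with array weights and 0.117 without WT 1. With a replicate block the slope turned to 0.072 ± 0.12 (SE).

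The slopes of the genotypes were compared by the limma interaction test, which called 0 of 19938 genes (0%) at an adjusted p under 0.05 and 902 (4.52%) at an unadjusted p under 0.05. For Vangl2 the slope was -0.24 ± 0.14 in mutants and -0.13 ± 0.07 in WT (SE), a difference of -0.11 (interval -0.46 to 0.23). The 1 member with an unadjusted p under 0.05 was Prickle2, at 0.23 ± 0.11 in mutants and -0.09 ± 0.06 in WT, a difference of 0.32 (limma unadjusted p 0.0316, adjusted 0.999). Prickle2 lies at the level of the receptor probes, as given above.

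Of the pairs among Vangl2, Celsr2 and Celsr3, only that of Vangl2 and Celsr2 passed after adjustment, by Pearson r and not by Spearman rho. The tests of pairs, here and for Vangl1 and Prickle2 below, were not planned, and their alternatives were added after the values were seen. Their permutations took no account of genotype or somite number. Over the 8 embryos Vangl2 and Celsr2 had a Pearson r of 0.93 (exact permutation p 0.0015, adjusted over the 45 pairs of members 0.0346) and a Spearman rho of 0.83 (exact permutation p 0.0154, adjusted 0.250). Without the 2 embryos farthest from the median of Vangl2, r was 0.83, and after quantile normalization it was 0.91. Celsr2 and Celsr3 gave an r of 0.87 and a rho of 0.83 (exact permutation p 0.0052 and 0.0167, adjusted 0.0781 and 0.250), and r was 0.58 without the 2 farthest embryos. Vangl2 and Celsr3 gave an r of 0.76 and a rho of 0.63 (exact permutation p 0.0252 and 0.0999, adjusted 0.284 and 0.848), which did not hold without the 2 farthest (0.37).

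The values behind these relations were highest in mutant 4 for all 3 genes and lowest in WT 1. Celsr2 was at 6.40 in mutant 4, 6.30 in WT 4 and 6.25 in WT 3, and at 6.02 in WT 1. Markers of hindgut endoderm, the epithelium that PGCs leave at this stage, were measured beside them: the mean of 10 of 10 markers was 6.70, 6.72, 6.82 and 7.07 in mutants 1 to 4, against 6.58, 6.83, 6.85 and 7.14 in WT 1 to 4. This mean was highest in WT 4 and mutant 4 and lowest in WT 1, and the slope per somite was below 0 for 8 of 10 markers (59.5% of all genes). Single markers differed from it: Cdx2 was at 8.24 in WT 1 and 7.87 in WT 4, and Cdh1 at 8.88 in WT 1, 8.60 in WT 4 and 8.41 in WT 3. Of the other markers, Sox17 averaged 5.05 in mutants and 5.17 in WT, below the receptor yardstick, while Krt18 reached 9.47 in WT 4 and Krt8 7.87. The place of WT 4 above mutant 4 in the mean rested on Krt18, at 7.62 in mutant 4. Its place above mutant 3 and WT 3 rested on Krt18 and Krt8 together. Epcam and Cdh1 are also expressed by PGCs. The part of hindgut cells in the variation of Vangl2 and the Celsr genes was not tested.

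**Figure D4:**
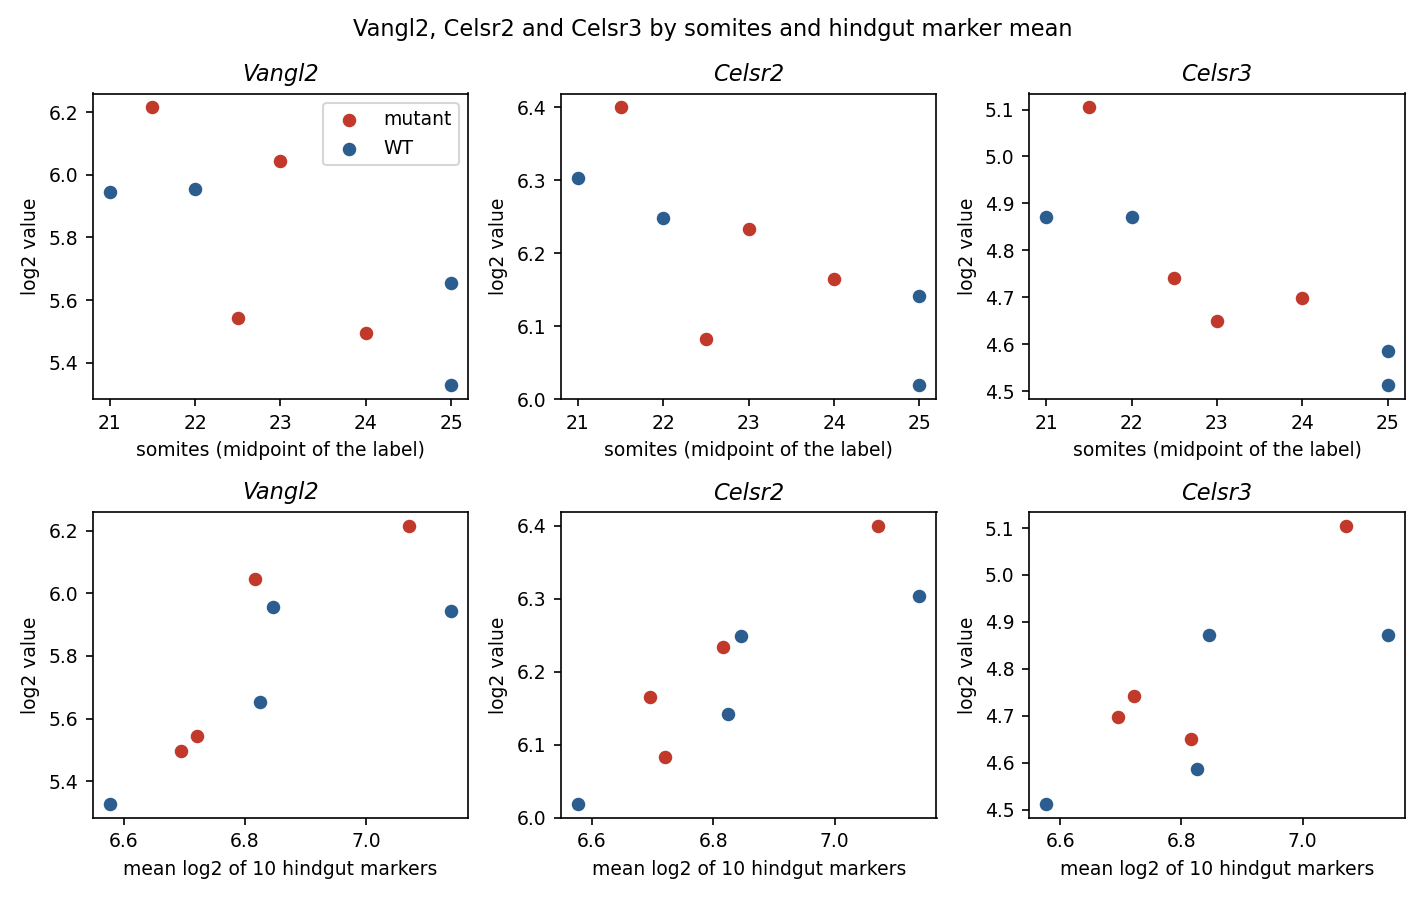
Log2 values of Vangl2, Celsr2 and Celsr3 against somite number (top, midpoint where the label gives a range) and against the mean log2 of 10 hindgut endoderm markers (bottom), mutants red and WT blue, 1 point per embryo, axes not starting at 0. In each gene WT 1, at 25 somites and a marker mean of 6.58, is the lowest point, and mutant 4, at a marker mean of 7.07, is the highest.

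Markers of neural tube, where Celsr and Vangl genes are also active, had a mean over 8 of 8 genes of 5.52, 5.48, 5.29 and 5.68 in mutants 1 to 4, against 5.34, 5.39, 5.60 and 5.53 in WT 1 to 4. It was highest in mutant 4, as was Celsr3, and lowest in mutant 3. The slope was below 0 for 8 of 8 (59.5% of all genes). Slopes below 0 were also found for 7 of 8 trunk mesenchyme, 5 of 6 primitive erythroid, 4 of 5 macrophage and 4 of 6 endothelium markers. Among PGC markers 5 of 12 had one. The mesenchyme, erythroid, macrophage and endothelium means ran from 4.65 to 5.86 over the embryos, around the receptor yardstick of 5.26. PGC marker means ran from 9.84 to 10.13. The part of signal level in these slopes was not tested. Tubb3, a neuronal tubulin, was the 1 gene of this list with an unadjusted limma p under 0.05 between genotypes (0.0465, adjusted 0.973), at 5.75, 5.65, 5.14 and 6.46 in mutants, against 5.11, 5.02, 5.25 and 5.42 in WT. The place of mutant 4 above WT 3 in the list mean rested on Tubb3. Pax6 (4.28 in mutants and 4.42 in WT) and Olig2 (4.59 in mutants and 4.57 in WT) lay below the receptor yardstick. So did Pax3 (4.86 in mutants and 4.89 in WT), and Ncam1 (5.13 in mutants and 5.27 in WT) was close to it. Sox1 (6.62 in mutants and 6.66 in WT) and Sox3 (7.02 in mutants and 7.06 in WT) lay above it. The part of neural cells in the values of Vangl2 and the Celsr genes was not tested.

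Vangl1 and Prickle2 ran in opposite directions, with a Pearson r of -0.94 and a Spearman rho of -0.90 over 8 embryos (exact permutation p 0.0013 and 0.0046, adjusted over 45 pairs 0.0346 and 0.205). Without the 2 embryos farthest from the median of Vangl1, r was -0.91. Vangl1 was highest in mutant 2 and WT 1 (6.95 and 6.92), where Prickle2 was at 3.91 and 4.07. It was lowest in WT 4 and mutant 1 (6.47 and 6.55), where Prickle2 was at 4.57 and 4.53. All of these Prickle2 values lie below the receptor yardstick of 5.26, so they cannot be told apart from those of such probes.

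Among 9461 named genes of above-median level, the 3 whose values over the 8 embryos were most like those of Vangl2 were Celsr2 (r = 0.93), Filip1l (0.93) and Celf3 (0.93), given as a description. For Smurf2 they were Ndufab1 (0.97), Ift140 (0.97) and Tbc1d22b (0.96), and for Smurf1 Plagl1 (0.97), Zfp704 (0.97) and Tmem126b (0.95). These r values are the highest of 9461 over 8 embryos, so they are high by selection. Of the 9461 genes, 22 had an r of at least 0.9 with Smurf2, 13 with Smurf1 and 9 with Vangl2.

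Other genes of the pathway were read from fixed lists. None passed the limma test, which called 0% of genes. Of 29 measured planar polarity partners, the unadjusted p was under 0.05 for 1, which was higher in mutants (2.72% of all genes), and 12 of 29 lay above 0 (44.6% of all genes). The ligand Wnt5a was that gene, at 7.21, 6.53, 6.78 and 6.86 in mutants, against 6.40, 5.72, 6.61 and 6.55 in WT, so mutant 2 lay inside the WT range. The cytoplasmic Dishevelled proteins carry the signal from Frizzled: Dvl1 differed by 0.22 (interval -0.10 to 0.54), Dvl2 by 0.23 (interval -0.07 to 0.53) and Dvl3 by -0.19 (interval -0.68 to 0.29). Ptk7, a receptor-like partner of the pathway, differed by 0.07 (interval -0.26 to 0.39), and Magi3, which can bind Vangl, by -0.29 (interval -0.59 to 0.02).

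Fzd3, a planar polarity Frizzled receptor that acts with Celsr3 in axon guidance in mice, differed by 0.06 between genotypes (interval -1.01 to 1.13), and its somite slope did not pass after adjustment. In order of somite number it was at 5.49 (WT 4), 5.34 (mutant 4), 5.42 (WT 3), 5.77 (mutant 2), 6.94 (mutant 3), 7.09 (mutant 1), 7.18 (WT 1) and 6.81 (WT 2). The 4 embryos labelled 23, 24 and 25 somites (6.81 to 7.18) lay above the other 4 (5.34 to 5.77), in both genotypes. The slope was 0.49 ± 0.08 log2 per somite (SE, interval 0.30 to 0.68), with a limma unadjusted p of 0.000211 and an adjusted p of 0.255. Its paralogue Fzd6 had a slope of 0.00 (interval -0.11 to 0.12).

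In the Scribble and Par polarity modules, the unadjusted p was under 0.05 for 3 of 22 measured genes other than Scrib, 2 of them higher and 1 lower in mutants, against 2.72% and 1.96% of all genes. The genes of smallest p were Mpp5 (Pals1), the scaffold of the Crumbs complex, and Crb3, its membrane partner, and they differed in opposite directions. Mpp5 was at 7.26, 7.40, 7.24 and 7.16 in mutants, against 7.09, 6.69, 6.74 and 6.85 in WT, with no overlap and a difference of 0.42 ± 0.13 (SE; limma unadjusted p 0.00994, adjusted 0.973). Crb3 differed by -0.56 ± 0.20 (limma unadjusted p 0.0171, adjusted 0.973), with 7.06, 7.39, 7.53 and 6.78 in mutants, against 7.67, 7.86, 7.42 and 8.06 in WT.

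Among 13 effectors 0 reached an unadjusted limma p under 0.05, against 4.68% of all genes, the nearest being Map3k4, at 7.61 in mutants and 7.32 in WT (0.29), and Mapk10, at 3.82 in mutants and 4.09 in WT, below the receptor yardstick. Of the 7 Nedd4-family ligases other than the Smurfs, which share their domain plan, 0 did so, and Itch differed by 0.37 (interval -0.12 to 0.85). Of 22 Smurf partners and substrates, 1 was higher and 0 lower at that level, against 2.72% and 1.96% of all genes: Smad3, a TGF-beta effector, at 7.26, 8.68, 8.04 and 7.77 in mutants, against 7.05, 7.02, 7.70 and 7.48 in WT. Its difference was 0.62 ± 0.28 (SE; limma unadjusted p 0.0478, adjusted 0.973), and the groups overlapped. Bmpr2, a BMP receptor, differed by 0.26 (interval -0.09 to 0.60).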

How the data were processed

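Germ cells sorted from single embryos gave 1 biotin-labelled array each; per the labels' protocols, RNA was amplified with the NuGEN Ovation FFPE WTA and Encore kits. The deposited table holds 1 value per probe and array (35557 probes, 8 arrays), taken as log2 from the range of 0.99 to 13.83. Its scale and normalization were not given in the sources used here, and values entered the tests as deposited. Array medians are close but not equal. Of the probes, 21789 had 1 gene symbol in the platform annotation (1621 several, 12147 unnamed here), giving 19938 genes, of which 999 had several probes; the probe of highest mean was kept.

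All genes were fitted with limma 3.58.1 in R 4.3.3 (lmFit, eBayes), for genotype, for somite number with genotype in the model and for their interaction, with Benjamini-Hochberg adjustment over all genes (threshold 0.05). SE and 95% intervals come from limma, and SD is the spread between the 4 embryos of each genotype. The script was tested on simulated data. Somite ranges entered as midpoints. Number of arrays limits the precision. The labels call the 8 samples biological replicates from separate embryos.

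The members and lists were chosen with earlier results of these data known. The rule named all members, 8 fixed partners (Ror2, Wnt5a, Dvl1, Dvl2, Dvl3, Fzd3, Fzd6, Ptk7), 2 genes of smallest p per list, and for the 3 members of largest SD the 3 genes of highest correlation. Alternatives covered normalization, centring, level filter, probe choice, variance trend, array weights, replicate block, somite terms and leaving out each embryo. Marker lists for mesenchyme, erythroid cells, macrophages and endothelium were measured too. Their means were 5.24 to 5.43, 4.65 to 4.87, 5.17 to 5.44 and 5.22 to 5.42 in mutants, against 5.19 to 5.69, 4.66 to 5.31, 5.24 to 5.86 and 5.27 to 5.39 in WT, each in that order of lists.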

Additional observations from a re-analysis of the deposited data

Results flagged for a closer look

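2 of the 22 sets of 4 embryos examined (each member and the second Smurf2 probe, in each genotype) held an embryo set apart from the others of its genotype, by a gap test that chance meets in about 1 in 20 sets. Scrib was 7.79 in mutant 3, against 7.46 to 7.51 in the other mutants. The second Smurf2 probe was 5.18 in WT 3, the array of narrowest distribution, against 6.03 to 6.16 in the other WT embryos.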

How the results depend on the processing

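Of the recomputed member differences that an alternative could move (122 of 158, the others being equal to the reported value), 114 kept their direction, and of such somite slopes (152 of 178) 140 did; no member passed under any alternative run (smallest adjusted limma p 0.504 and 0.441). The difference of Smurf2 turned to -0.14 with its probe of lower mean, an alternative chosen after seeing the data, and ran from 0.60 to 0.92 with each embryo left out. With each embryo left out, differences ran from -0.027 to 0.21 for Vangl2, -0.018 to 0.088 for Celsr2, -0.014 to 0.14 for Celsr3 and -0.19 to 0.012 for Prickle1. Slopes likewise ran from -0.031 to 0.048 for Vangl1, -0.071 to 0.031 for Prickle2 and -0.071 to 0.015 for Scrib. The slope of Vangl1 was -0.0027 after quantile normalization, and that of Prickle2 0.00016 after median centring. The count of genes past the threshold stayed at 0 for genotype and for the interaction under every alternative run. For the slope it ran from 0 to 2 with each embryo left out (1 without mutant 1, mutant 4 or WT 3, and 2 without WT 4), and was 1 with the upper end of the somite ranges. The count at an unadjusted p under 0.05 was 1715 without WT 1, against 934 with all embryos. Without genes of low level, Vangl2 was kept and Celsr3, Prickle2 and Smurf1 were left out. Same-numbered embryos of the 2 genotypes did not deviate together (r of -0.05, 0.04, -0.19 and 0.10). With the replicate block the genotype count was 0 (891 at an unadjusted p under 0.05), and the slope count 0 (675, against 1942 without the block). With that block only somite differences between same-numbered embryos inform the slope, and the SE of the Vangl2 slope was 0.12, against 0.06 without it. The slopes turned for Vangl1 (-0.019 ± 0.14, SE), Vangl2 (0.072 ± 0.12), Celsr2 (0.016 ± 0.12), Scrib (0.0023 ± 0.14) and Smurf2 (-0.16 ± 0.13). The cause of these turns was not tested. No scanner values were used here, so signal over background is unknown.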

Other observations

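Itch, a Nedd4-family ligase related to the Smurfs, had nearly equal values in mutants and a wide spread in WT. Its log2 values were 8.18, 8.12, 8.17 and 8.17 in mutants 1 to 4 (SD 0.03), against 8.38, 7.997, 7.54 and 7.25 in WT 1 to 4 (SD 0.50). The WT embryos of 25 somites held the higher values and those of 22 and 21 somites the lower ones. Over both genotypes the slope of Itch was 0.18 ± 0.05 log2 per somite (SE), with a limma unadjusted p of 0.00705 and an adjusted p of 0.428. By genotype it was 0.01 ± 0.11 in mutants and 0.23 ± 0.05 in WT, a difference of -0.22 (interval -0.50 to 0.05; limma unadjusted p 0.0961, adjusted 0.999). Itch was singled out after its values were seen, and the difference in spread was not tested.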
